A study of Homo sapiens with 27 samples.

Results

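Of the 57165 genes of the count table, 10 were followed that encode non-collagen proteins of the matrix around mesenchymal cells. They were taken by name, and no threshold on their values was used: fibronectin (FN1), fibrillin 1 (FBN1), SPARC, periostin (POSTN), thrombospondin 1 and 2 (THBS1, THBS2), tenascin C (TNC), and the small leucine-rich proteoglycans lumican (LUM), decorin (DCN) and biglycan (BGN). RNA-seq libraries came from SUM159 and MDA-MB-231, established human triple-negative breast cancer (TNBC) lines with a mesenchymal, claudin-low character, in which the gene of the transcription factor ZEB1 was silenced with dCas9-KRAB. This is a Cas9 without cutting activity fused to the KRAB repressor, directed to DNA by a guide RNA (gRNA). There were 9 groups of 3 libraries (27 in all), in 2 runs.

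In SUM159 the groups were wild type cells (run 1, and again in run 2), cells with the dCas9-KRAB vector and No gRNA (run 1), cells with gRNA 4 (run 1), and cells with the pool of 4 gRNAs, called All gRNA (run 1). In MDA-MB-231 they were wild type, No gRNA and 2 targeted groups, all in run 2. The title and the description of each targeted MDA-MB-231 group name different gRNAs, so these groups are called set 1 (gRNA 4 by its title) and set 2 (4 gRNAs by its title), and no result below rests on which gRNA each received. All groups but wild type carried a lentiviral vector in which the ubiquitin C promoter drives dCas9-KRAB, and were kept under puromycin, so No gRNA shares the vector, the virus and the selection with the targeted groups and wild type does not. The study's methods describe the replicates as separate clones. Each library held between 15461200 and 21473757 estimated counts, and no 2 libraries of a group agreed within sampling noise. Line and run coincide except for the wild type SUM159 cells of run 2, so the lines were compared directly only there.

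Matrix glycoproteins such as fibronectin, thrombospondins and tenascins are large modular proteins that cells bind through integrins and other receptors. Fibrillin forms microfibrils, and SPARC and periostin are matricellular proteins that modulate how cells attach. The small proteoglycans bind collagen fibrils and growth factors. ZEB1 represses epithelial genes through E-box DNA and is a driver of the epithelial to mesenchymal transition (EMT), in which fibronectin and SPARC are common mesenchymal markers.

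The 4 gRNAs are shown because they define the targeted groups. They are written 5' to 3' with the adjacent PAM in capitals, and each matched chromosome 10 of GRCh38 at 1 place within the ZEB1 gene (chr10:31318495-31529814, plus strand).

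gRNA 1, chr10:31319025-31319044, minus strand: gggcggtttgcggcaaccgtGGG
gRNA 2, chr10:31319067-31319086, minus strand: agaggctctcgctctacggcCGG
gRNA 3, chr10:31319117-31319136, minus strand: cacctggtttacgacactccCGG
gRNA 4, chr10:31319209-31319228, plus strand: agcatttagacacaagcgagAGG

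In the GENCODE annotation all 4 sites lay in exons of ZEB1 transcripts, and those of gRNA 3 and gRNA 4 in the 5' UTR of coding transcripts. The sites of gRNA 1 and gRNA 2 also lay in exons of the antisense gene ZEB1-AS1. The deposited values do not state whether strand was used in counting, so reads of ZEB1 and ZEB1-AS1 could not be told apart where the genes overlap.

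ZEB1 was low in every targeted library. Its level, in CPM (counts per 1000000 counts of the library, adjusted by TMM over all libraries), was 70.4, 77.3 and 73.3 in SUM159 No gRNA, 4.54, 3.25 and 2.56 with gRNA 4, and 0.806, 0.374 and 1.02 with All gRNA. The MDA-MB-231 libraries held 105, 122 and 104 CPM of it in No gRNA, between 4.77 and 5.78 in set 1 and between 3.75 and 5.48 in set 2. No targeted library overlapped a control library of its line. EPCAM, an epithelial adhesion gene, rose from 12.6 to 384 CPM in set 2 of MDA-MB-231 (limma TREAT adjusted p = 1.13e-10). In SUM159 it was at 0 counts in all 3 No gRNA libraries and at a mean of 0.864 CPM with All gRNA, and it passed the filter on low counts only through the targeted groups. Of the epithelial genes tested, TREAT called 3 of 6 higher in set 1, 2 of 6 in set 2 and 1 of 3 in each SUM159 comparison. The SUM159 counts include EPCAM, which was tested there only because it was higher in the targeted groups. No conclusion is therefore drawn from the SUM159 counts. Over all genes it called 1.1% and 1.74% higher in set 1 and set 2, 0.33% with All gRNA and 0.297% with gRNA 4. In the test of the lines against each other (interaction, below), TREAT called 0 of 6 epithelial genes, against 0.954% of all genes. The moderated test described below called 1, against 25.4%. Estrogen and progesterone receptor genes (ESR1, PGR) stood below 0.5 CPM in all group means, and VIM, the mesenchymal filament gene, at 1326 CPM or more. Of the 3 genes read for the triple-negative type, however, 1 was expressed enough to pass the filter on low counts in both lines. CDH2 was abundant in SUM159 alone, at 99.3 CPM in No gRNA against 0.290 CPM in MDA-MB-231. The 3 mesenchymal genes checked were VIM, CDH2 and ZEB1 itself. ZEB1 is the targeted gene, so its fall says nothing about the mesenchymal state. By the moderated test, 2 of the 3, ZEB1 among them, were lower and 0 higher in set 1 (log2 fold changes from -4.36 to -0.75). In set 2, ZEB1 alone was lower and 2 were higher (from -4.54 to 2.09). CDH2 had few reads in MDA-MB-231 No gRNA, so no conclusion is drawn from its test there. In each SUM159 comparison 2 were lower, ZEB1 among them, and 0 higher. Over all genes, 17.3% were lower and 20.4% higher in set 1, and 25.1% and 27.3% in set 2. The shares were 4.89% and 5.93% with All gRNA, and 4.91% and 6.11% with gRNA 4. The claudin genes CLDN4 and CLDN7, low in the claudin-low subtype, were near 0 in SUM159 and at 65.9 and 17.5 CPM in wild type MDA-MB-231, with no epithelial line here to set these levels against.

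The 10 genes fell into expressed and nearly silent members. Levels of different genes are given per kilobase of the canonical transcript (CPM per kb), since a longer transcript collects more reads. In SUM159 No gRNA, FN1 stood highest at 271 ± 4.19 CPM per kb (SD, n = 3), followed by TNC (78.3 ± 2.83), SPARC (68.4 ± 2.98), THBS1 (7.64 ± 0.486) and DCN (6.51 ± 0.927). The libraries of THBS1 and DCN overlapped per kb, so their order is not separated. In MDA-MB-231 No gRNA FN1 was also first, at 165 ± 11.4 CPM per kb, followed by THBS1 (51.0 ± 7.06), TNC (29.5 ± 0.764) and FBN1 (4.24 ± 1.15). In wild type MDA-MB-231 THBS1 was ahead (68.2 ± 6.55 CPM per kb), then FN1 (27.1 ± 2.25), TNC (18.6 ± 1.90) and FBN1 (2.24 ± 0.162), whereas in wild type SUM159 of run 1 FN1 was again first (187 ± 5.70). In set 2 THBS1 reached 269 ± 4.79 CPM per kb, against 44.4 ± 4.41 for FN1.

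LUM, which encodes a corneal and dermal collagen-binding proteoglycan, was at 0 counts in 24 of 27 libraries and at most 2.83 counts in the others. BGN reached at most 8.998 counts in a library. POSTN reached 27.5 counts in 1 All gRNA library, with 7.76 and 4.84 in the other two, and at most 1.41 counts in MDA-MB-231. THBS2, the close relative of THBS1, held between 5.97 and 29.6 counts per library in SUM159 and at most 8.79 in MDA-MB-231. At these depths no difference in LUM or BGN was detectable in either line, and 3 counts, the upper limit that a count of 0 allows, correspond to between 0.142 and 0.193 CPM, depending on the library. The filter on low counts (about 10 counts in 3 libraries) therefore left 8 of the 10 genes for testing in SUM159 (without LUM and BGN) and 5 in MDA-MB-231 (FN1, FBN1, SPARC, THBS1 and TNC). SPARC passed in MDA-MB-231 only through its No gRNA libraries.

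**Figure D1:**
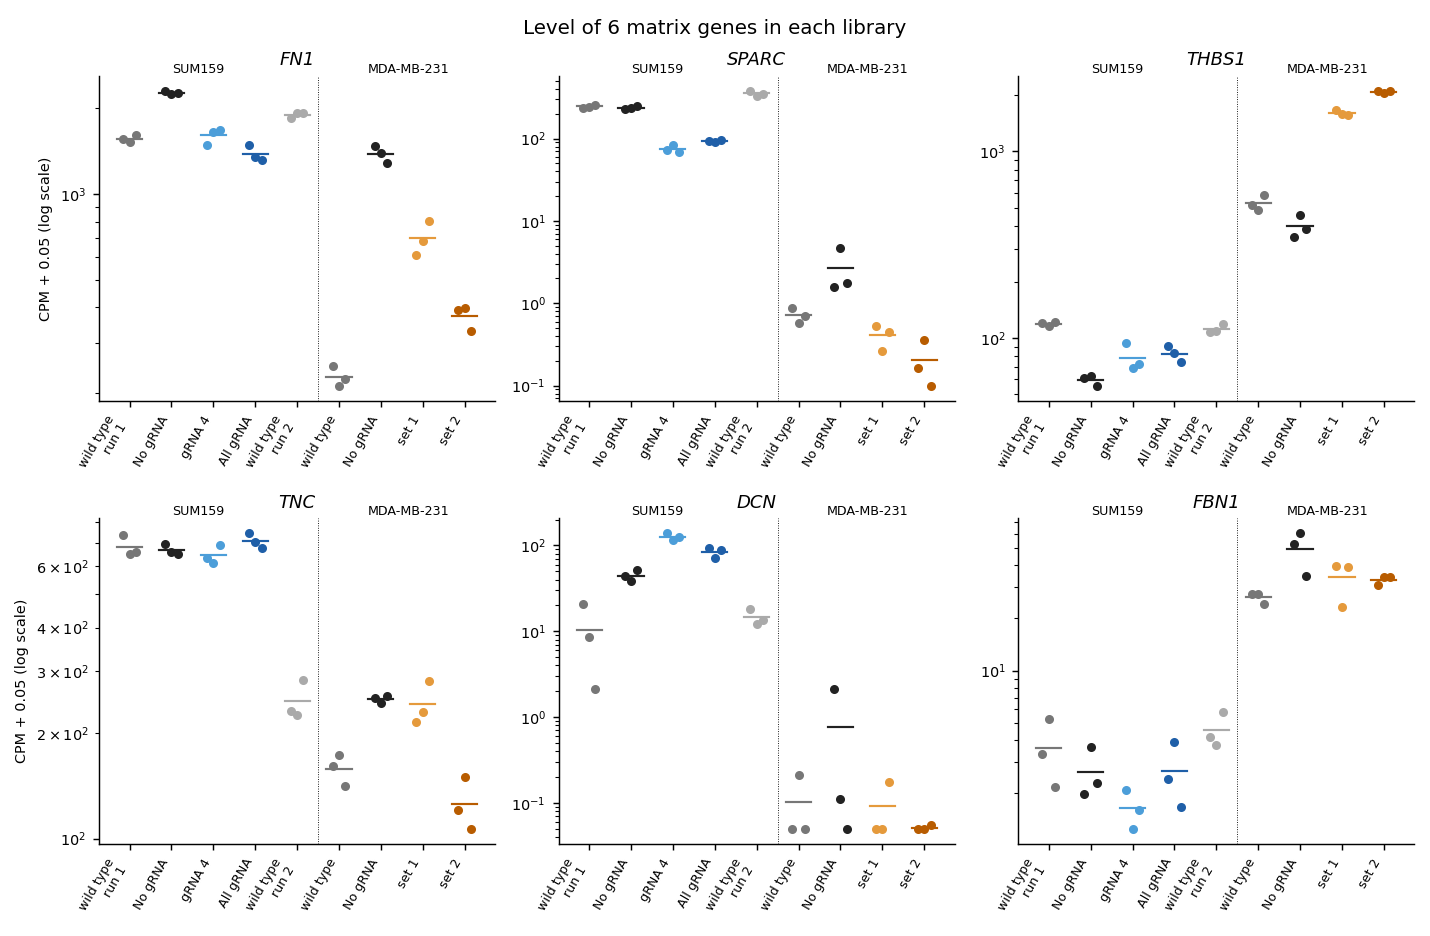
Level of FN1, SPARC, THBS1, TNC, DCN and FBN1 in each library (points, n = 3 per group; bars, group means) as CPM + 0.05 on a log axis, by group, with SUM159 left and MDA-MB-231 right of the dotted line. SPARC was lower in all targeted libraries of both lines than in any control library of that line, whereas FN1 in MDA-MB-231 was lowest in wild type.

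Silencing ZEB1 was compared with No gRNA, which asks how the matrix genes changed with ZEB1 beyond the vector and selection. SPARC fell in SUM159. In MDA-MB-231 it was lower than in No gRNA too, but with few reads, and it passed the filter on low counts only through No gRNA. FN1 fell as well, by less in SUM159. THBS1 rose strongly in MDA-MB-231 and little in SUM159. TNC fell only in set 2 by the tests run here, and FBN1 passed no test with voom-limma. DCN rose with gRNA 4 in SUM159. The first test (TREAT) asked whether a fold change was beyond 2-fold in size (a log2 fold change of 1), and a second, moderated test in the same limma fit asked whether it was beyond 0. Both were adjusted by Benjamini-Hochberg over all genes tested, with a threshold of 0.05.

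By TREAT, 1 of 8 tested members was lower with All gRNA, 1 of 8 with gRNA 4, and 2 of 5 in set 2, while 1 of 5 was higher in set 1 and 1 of 5 in set 2. Over all genes tested, TREAT called 0.066% lower and 0.33% higher with All gRNA, 0.0924% lower and 0.297% higher with gRNA 4, 0.369% lower and 1.1% higher in set 1, and 2.4% lower and 1.74% higher in set 2. By the moderated test 2 members were lower and 1 higher in each SUM159 comparison and in set 1, and 3 lower and 1 higher in set 2. The shares of all genes for that test were 4.89% lower and 5.93% higher with All gRNA, 4.91% and 6.11% with gRNA 4, 17.3% and 20.4% in set 1, and 25.1% and 27.3% in set 2. The libraries of 5 members did not overlap between All gRNA and No gRNA, of 4 with gRNA 4, of 3 in set 1 and of 5 in set 2, against 29.5%, 29.5%, 48.9% and 59.7% of all genes. The median log2 fold change of the tested members was 0.03 with All gRNA, -0.17 with gRNA 4, -0.55 in set 1 and -0.996 in set 2, where the median of all genes tested lay within 0.02 of 0. The counts and medians of set 1 and set 2 include SPARC, which passed the filter on low counts in MDA-MB-231 only through No gRNA. The members thus moved in opposite directions and are described one by one.

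**Figure D2:**
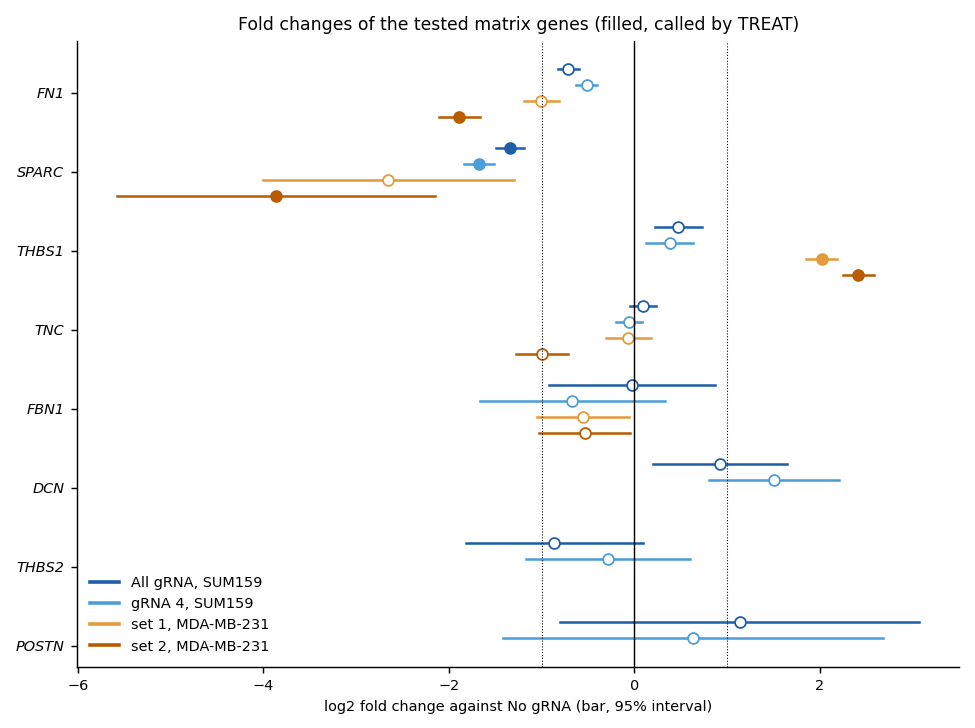
Log2 fold change against No gRNA (points; bars, 95% intervals of the limma fit) of the matrix genes that passed the filter on low counts, for the 4 targeted groups; filled points passed TREAT and dotted lines mark a log2 fold change of 1 in either direction. SPARC lies left of 0 in all 4 comparisons (-1.34 to -3.86), and THBS1 at 2.02 and 2.42 in MDA-MB-231 but at 0.47 and 0.38 in SUM159.

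SPARC encodes osteonectin, a secreted calcium-binding matricellular protein (chr5:151661096-151686975, minus strand, 10 exons in the canonical transcript). In SUM159 it stood at 226, 236 and 247 CPM in No gRNA, at 71.7, 84.5 and 67.7 CPM with gRNA 4, and at 92.1, 92.0 and 94.7 CPM with All gRNA. All 6 targeted libraries lay below all 6 control libraries of the same run, where wild type ranged from 237 to 258 CPM. With gRNA 4 SPARC was 3.19-fold lower (log2 fold change -1.68 ± 0.07 SE, limma TREAT adjusted p = 3.51e-04), and with All gRNA 2.53-fold lower (-1.34 ± 0.07, TREAT adjusted p = 0.0474). The latter call sat at the threshold: it was lost when any 1 of the 6 compared libraries was left out (TREAT adjusted p from 0.0929 to 0.237), with the fold change between -1.31 and -1.37. It passed the moderated test (adjusted p = 2.62e-07).

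In MDA-MB-231 SPARC was scarce to begin with. It held 27.3, 83.8 and 31.1 counts in No gRNA, 7.82, 3.56 and 6.12 counts in set 1, and 1.93, 5.33 and 0.755 counts in set 2. Targeted and No gRNA libraries did not overlap, and the wild type libraries, at 13.9, 9.28 and 11.8 counts, stood between them. Against No gRNA the log2 fold change was -3.86 (95% interval -5.58 to -2.15, TREAT adjusted p = 0.0451) in set 2 and -2.65 (-4.01 to -1.30, TREAT adjusted p = 0.464, moderated adjusted p = 0.00552) in set 1. The call in set 2 rested on few reads and was lost when No gRNA replicate 3 or any 1 of the set 2 libraries was left out, at adjusted p up to 0.221. In this line SPARC passed the filter on low counts only through No gRNA, where it was high. No conclusion is therefore drawn from these tests.

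FN1 encodes fibronectin, the adhesive glycoprotein bound by integrin alpha 5 beta 1 (chr2:215360440-215436073, minus strand, 46 exons). In SUM159 it was at 2310, 2240 and 2273 CPM in No gRNA, at 1482, 1658 and 1679 CPM with gRNA 4, and at 1485, 1354 and 1317 CPM with All gRNA. Every targeted library lay below every No gRNA library, but the wild type libraries of run 1 (1521 to 1617 CPM) lay within the range of gRNA 4. FN1 was 1.64-fold lower with All gRNA (log2 fold change -0.71 ± 0.05 SE, moderated adjusted p = 4.25e-06) and 1.43-fold lower with gRNA 4 (-0.51 ± 0.05, 5.90e-05), both inside the 2-fold bound of TREAT (adjusted p = 1). With wild type as the control the log2 fold changes of FN1 were -0.19 with All gRNA and 0.0164 with gRNA 4.

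In MDA-MB-231 FN1 was at 1479, 1396 and 1289 CPM in No gRNA, at 610, 685 and 803 CPM in set 1, and at 391, 397 and 330 CPM in set 2. The 3 groups did not overlap. The fall against No gRNA was 3.70-fold in set 2 (log2 fold change -1.89 ± 0.10 SE, TREAT adjusted p = 1.03e-04) and 2.00-fold in set 1 (-1.002 ± 0.09, moderated adjusted p = 3.98e-06, TREAT adjusted p = 1). The wild type libraries, however, were at 248, 211 and 223 CPM, below all targeted libraries of this line.

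THBS1 encodes thrombospondin 1, a matricellular glycoprotein that binds CD36 and CD47 and activates latent TGF-beta (chr15:39581079-39599466, plus strand, 22 exons). In MDA-MB-231 it was at 350, 457 and 383 CPM in No gRNA, at 1663, 1589 and 1559 CPM in set 1, and at 2118, 2051 and 2114 CPM in set 2. No targeted library overlapped No gRNA or wild type (517, 488 and 588 CPM). THBS1 was 4.06-fold higher in set 1 (log2 fold change 2.02 ± 0.08 SE, TREAT adjusted p = 7.44e-06) and 5.33-fold higher in set 2 (2.42 ± 0.08, 1.72e-07), and both calls held without any 1 library. Among the members tested against No gRNA it was the largest rise.

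In SUM159 THBS1 was at 61.0, 62.3 and 55.2 CPM in No gRNA, at 93.7, 68.9 and 72.4 CPM with gRNA 4, and at 90.5, 83.0 and 74.3 CPM with All gRNA. The targeted libraries were above No gRNA but below the wild type libraries, which ran from 117 to 121 CPM. The log2 fold change against No gRNA was 0.47 ± 0.11 SE with All gRNA (moderated adjusted p = 0.0211) and 0.38 ± 0.12 with gRNA 4 (0.0599), and neither passed TREAT. Against wild type the direction was opposite (-0.54 with All gRNA and -0.63 with gRNA 4).

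TNC encodes tenascin C, a hexameric glycoprotein of wound and tumor stroma (chr9:115019575-115118207, minus strand, 28 exons). In SUM159 its libraries overlapped between No gRNA (649 to 693 CPM), gRNA 4 (613 to 690 CPM) and All gRNA (677 to 744 CPM). The 95% intervals of the log2 fold change were -0.04 to 0.23 with All gRNA and -0.19 to 0.08 with gRNA 4, so both held only small changes in either direction. In MDA-MB-231 TNC was at 253, 243 and 256 CPM in No gRNA, at 216, 230 and 282 CPM in set 1, and at 120, 150 and 107 CPM in set 2. Set 2 lay below set 1 and No gRNA (log2 fold change -0.996 ± 0.13 SE, moderated adjusted p = 4.75e-05), while set 1 overlapped No gRNA (-0.06, 95% interval -0.31 to 0.18). The wild type libraries, at 161, 173 and 141 CPM, overlapped set 2, and against wild type its log2 fold change was -0.39 (TREAT adjusted p = 1).

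DCN encodes decorin, a proteoglycan that decorates collagen fibrils and binds TGF-beta (chr12:91140484-91183217, minus strand, 8 exons). It was an SUM159 gene: at 44.1, 38.5 and 51.2 CPM in No gRNA, 139, 117 and 125 CPM with gRNA 4, and 94.0, 70.6 and 88.7 CPM with All gRNA. All targeted libraries lay above No gRNA, which in turn lay above wild type (20.7, 8.55 and 2.07 CPM). The log2 fold change was 1.505 ± 0.32 SE with gRNA 4 (moderated adjusted p = 0.00994, TREAT adjusted p = 1) and 0.92 ± 0.33 with All gRNA (moderated adjusted p = 0.104). The edgeR quasi-likelihood test did not call DCN in either. The wild type libraries, which share the fit, ranged from 2.07 to 20.7 CPM. In MDA-MB-231 DCN was at 36.5 counts in 1 No gRNA library and at most 2.78 counts in any other.

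FBN1 encodes fibrillin 1, the backbone of microfibrils (chr15:48408313-48645721, minus strand, 66 exons). It was higher in MDA-MB-231, at 52.7, 60.5 and 34.5 CPM in No gRNA, 39.5, 23.1 and 39.0 CPM in set 1 and 30.5, 34.2 and 33.9 CPM in set 2, and its libraries there overlapped in set 1. The log2 fold changes, -0.55 and -0.54, did not pass the moderated test (adjusted p = 0.0768 and 0.0651), although edgeR's quasi-likelihood test called both (adjusted p = 0.0414 and 0.0289). In SUM159 FBN1 stayed under 6 CPM in every library, with log2 fold changes of -0.02 (95% interval -0.92 to 0.87) and -0.67 (-1.67 to 0.33). POSTN (1.14 and 0.63, with intervals of -0.80 to 3.07 and -1.42 to 2.68) and THBS2 (-0.86 and -0.28, with intervals of -1.82 to 0.09 and -1.17 to 0.60) were not called in SUM159 either.

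Whether the lines responded alike was tested as an interaction, the mean targeted effect in SUM159 minus that in MDA-MB-231, over the 5 genes that passed the filter on low counts in both lines. With No gRNA as the control THBS1 differed beyond 2-fold: its rise was 3.40-fold smaller in SUM159 (difference -1.77 ± 0.15 SE on the log2 scale, TREAT adjusted p = 0.00349). By the moderated test the fall against No gRNA of FN1 (difference 0.86, adjusted p = 3.69e-07) and SPARC (1.78, 0.00647) was smaller in SUM159, and TNC differed too (0.57, 8.36e-04), with its lower mean effect in MDA-MB-231. That makes 1 of 5 genes by TREAT and 4 of 5 by the moderated test, against 0.944% and 29.5% of all genes that passed in both lines (0.954% and 25.4% of all genes in the fit). Of these 4 differences, only that of THBS1 kept its direction and its call with wild type as the control, an alternative chosen after seeing the data (-2.36 ± 0.13 SE, TREAT adjusted p = 1.17e-07). The difference of FN1 then turned to -1.23 (moderated adjusted p = 2.64e-08), and those of SPARC (-0.07, 95% interval -1.20 to 1.06) and TNC (-0.14, -0.40 to 0.11) were no longer called. With that control TREAT called 1 of the 5 and the moderated test 2, against 3.27% and 49.2% of the genes that passed in both lines. SPARC passed in MDA-MB-231 only through No gRNA, where it was high, so its difference, though counted above, gives no firm comparison of the lines. POSTN, THBS2 and DCN passed over all 24 libraries only through their SUM159 counts, so they give no comparison of the lines.

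Within a line the targeted groups were also compared with each other. Between All gRNA and gRNA 4 no member passed TREAT or the moderated test, nor edgeR or DESeq2, with 3 of 8 at an unadjusted moderated p under 0.05 and 0 by TREAT; the shares of all genes were 0% and 0.944%. SPARC was at 0.34 (95% interval 0.16 to 0.51, moderated adjusted p = 0.0813), higher with All gRNA. ZEB1 was lower there, and whether SPARC followed the level of ZEB1 was not tested. Between set 2 and set 1, TREAT called no member (0 of 5 at an unadjusted p under 0.05 also) and 3.07% of all genes, while edgeR's quasi-likelihood test and limma's moderated test each called 3 of 5 members, and the moderated test 51.5% of all genes. FN1 (-0.89 ± 0.11 SE, moderated adjusted p = 4.59e-05) and TNC (-0.93 ± 0.13, 9.06e-05) were lower and THBS1 (0.40 ± 0.05, 5.68e-05) higher in set 2.

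Next, No gRNA was compared with wild type, which shows what came with the vector, the transduction and the selection of clones without any gRNA. These could not be told apart. In MDA-MB-231 the matrix genes were mostly higher in No gRNA. FN1 was 5.87-fold higher (log2 fold change 2.55 ± 0.11 SE, TREAT adjusted p = 3.10e-06), and by the moderated test SPARC (1.71, adjusted p = 0.0146), FBN1 (0.82, 0.0114) and TNC (0.61, 0.00110) were also higher, while THBS1 was lower (-0.49, 7.91e-04). TREAT called 1 of 5 members, against 3.6% of all genes, and the moderated test called 4 higher and 1 lower, against 26.2% and 27.6%. The 4 include SPARC, which passed the filter on low counts only through No gRNA. This comparison and those of set 1 and set 2 share the No gRNA libraries, so their directions are not independent.

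In SUM159 TREAT called no member between No gRNA and wild type (1 of 8 at an unadjusted p under 0.05), against 1.53% of all genes, and edgeR's glmTreat and DESeq2 called none. Against a fold change of 0, limma and edgeR each called 3 of 8. DCN (2.59 ± 0.50 SE, moderated adjusted p = 0.00151) and FN1 (0.53 ± 0.05, 9.23e-06) were higher and THBS1 (-1.01 ± 0.11, 2.06e-05) lower, where 21% and 21.9% of all genes were called higher and lower. SPARC (-0.07, 95% interval -0.20 to 0.06) and TNC (-0.04, -0.18 to 0.09) were close to wild type. With wild type instead of No gRNA as the control, SPARC was still called lower by TREAT in SUM159 (-1.41 with All gRNA and -1.75 with gRNA 4, adjusted p = 0.00279 and 3.32e-05), and THBS1 still higher in MDA-MB-231 (1.53 in set 1 and 1.93 in set 2, adjusted p = 2.15e-04 and 7.49e-06). DCN was then called in SUM159 (3.51 with All gRNA and 4.10 with gRNA 4, adjusted p = 0.00837 and 0.00163). SPARC in MDA-MB-231 was not called against wild type, at -0.94 in set 1 and -2.16 in set 2 (TREAT adjusted p = 1 for both). FN1 turned round in MDA-MB-231, to 1.55 in set 1 (adjusted p = 0.00834) and 0.67 in set 2, and was 0.02 with gRNA 4.

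**Figure D3:**
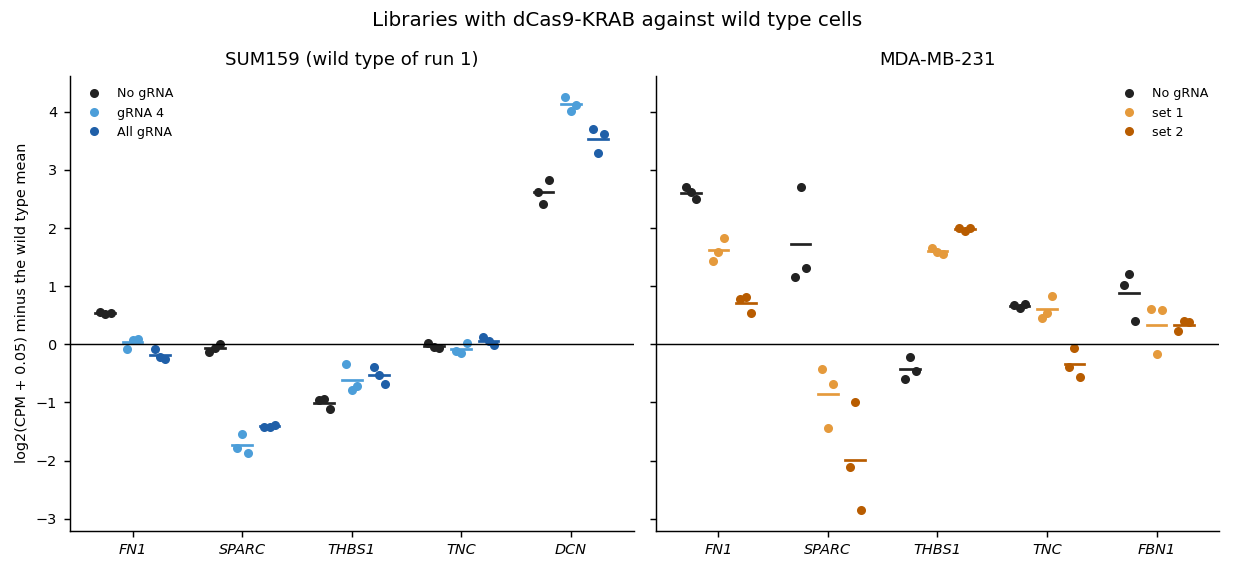
Log2(CPM + 0.05) of each dCas9-KRAB library minus the mean of the wild type libraries of its line and run (points; bars, means of 3 libraries). SPARC in SUM159 lies near 0 in No gRNA and below -1 in both targeted groups, whereas FN1 in MDA-MB-231 is highest in No gRNA and above 0 in set 1 and set 2 as well.

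The size of a run difference could be read from wild type SUM159, which was present in both runs. TNC was 2.78-fold lower in run 2 (232, 225 and 283 CPM against 734, 650 and 660 CPM; log2 fold change -1.47 ± 0.09 SE, TREAT adjusted p = 0.0125), a larger difference than any targeted comparison gave for this gene. The TREAT call of TNC was lost when run 2 replicate 1 or 2 was left out. FN1 (0.28) and SPARC (0.51) were higher in run 2 by the moderated test (adjusted p = 1.70e-04 and 3.36e-04). TREAT thus called 1 of 7 tested members and the moderated test 3 of 7, against 6.65% and 62.1% of all genes. Culture and sequencing could not be told apart here, and the targeted comparisons were all made within 1 run.

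Within run 2, wild type SUM159 and MDA-MB-231 differed in most expressed members. The study's methods give the lines different media, with insulin and hydrocortisone listed for SUM159 only, so line and medium could not be told apart. Of the members that passed the filter on low counts through both lines, TREAT called FN1, THBS1 and FBN1, and the moderated test called TNC as well. The shares of all genes called were 29.1% and 75.5%. SPARC was at 382, 330 and 345 CPM in SUM159 against 0.838, 0.534 and 0.644 CPM in MDA-MB-231 (log2 fold change 8.99 ± 0.39 SE, TREAT adjusted p = 3.96e-06). FN1 was 8.34-fold higher in SUM159, while THBS1 was 4.77-fold and FBN1 5.83-fold lower. DCN was at 12.2 to 18.0 CPM in SUM159, with 0, 2.78 and 0 counts in the MDA-MB-231 libraries. DCN and SPARC passed the filter on low counts only through SUM159 and are not counted here.

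The upstream sequences of SPARC, FN1 and THBS1 are shown because these genes passed TREAT, with opposite directions. They are RefSeq promoters (GRCh38.p14) on the strand of the gene, from 250 bases before the RefSeq start site up to the GENCODE start of the gene, and capitals mark matches on either strand to the TATA sequence TATAA, to the letters CACCT (the core bound by ZEB1 zinc fingers) or to the cAMP response element TGACGTCA.

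SPARC, chr5:151686976-151687165, minus strand: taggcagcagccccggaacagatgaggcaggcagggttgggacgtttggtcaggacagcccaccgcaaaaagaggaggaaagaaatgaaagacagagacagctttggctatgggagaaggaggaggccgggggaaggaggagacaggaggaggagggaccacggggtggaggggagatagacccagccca
FN1, chr2:215436074-215436318, minus strand: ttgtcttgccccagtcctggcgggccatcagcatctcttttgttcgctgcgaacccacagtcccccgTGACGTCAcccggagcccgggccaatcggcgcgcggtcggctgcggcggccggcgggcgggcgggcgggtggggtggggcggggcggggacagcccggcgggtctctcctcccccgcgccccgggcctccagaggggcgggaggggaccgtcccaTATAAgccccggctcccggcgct
THBS1, chr15:39580829-39581078, plus strand: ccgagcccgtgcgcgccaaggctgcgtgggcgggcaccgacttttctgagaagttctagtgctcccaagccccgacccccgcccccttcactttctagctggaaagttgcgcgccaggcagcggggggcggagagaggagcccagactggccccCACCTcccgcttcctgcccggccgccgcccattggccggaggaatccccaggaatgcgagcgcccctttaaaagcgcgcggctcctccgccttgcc

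Promoters were listed for 8 of the 10 genes, all but LUM and DCN. The E-box CACCTG, read on the other strand as CAGGTG, which contains the CACCT core, was in 0 of these 8 windows of 250 bases, against 17.5% of 35116 windows. The shorter CACCT core was in THBS1 (positions -96 to -92 from the start) and BGN, against 45.4% of windows. TATAA was in FN1, TNC, THBS2 and POSTN starting at -29 to -27 from the start site in each, against 18.9% of windows with a match anywhere, and TGACGTCA in FN1 alone, against 1.65%. All searches but that for the E-box were chosen after the sequences had been seen. A match is a description of the letters and not a binding site.

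Other genes of the matrix were read from 4 lists, of other glycoproteins (43 genes), other proteoglycans (25), enzymes that cross-link and process the matrix (24) and receptors for it (14). In SUM159 TREAT called none of the 68 tested list genes with All gRNA or with gRNA 4 (at an unadjusted p under 0.05, 1 glycoprotein and 1 enzyme with All gRNA, and 4 glycoproteins, 1 proteoglycan, 1 enzyme and 1 receptor with gRNA 4). By the moderated test 8 of 22 tested glycoproteins were lower and 1 higher with All gRNA, and 11 lower and 0 higher with gRNA 4. Of 13 proteoglycans 2 were lower and 3 higher with All gRNA, and 3 and 3 with gRNA 4. Of 22 enzymes 6 were lower and 1 higher with All gRNA, and 8 and 0 with gRNA 4. Of 11 receptors 1 was lower and 3 higher with All gRNA, and 3 and 4 with gRNA 4. Over all genes the shares called lower and higher were 4.89% and 5.93% with All gRNA and 4.91% and 6.11% with gRNA 4. Those comparisons share their No gRNA libraries with the following one. In No gRNA against wild type of SUM159, the same test called 10 glycoproteins higher and 6 lower, 6 proteoglycans higher and 1 lower, 13 enzymes higher and 0 lower (median 0.33), and 4 receptors in each direction, against 21% of all genes higher and 21.9% lower. TGFBI, an integrin-binding glycoprotein, stood at 2851 ± 39.7 CPM (SD, n = 3) in the No gRNA group, at 1615 ± 29.7 CPM with gRNA 4 and at 1452 ± 99.6 CPM with the pool (log2 fold change -0.83 and -0.97, moderated adjusted p = 1.33e-07 and 8.13e-08). The elastic fibre protein FBLN1 was at 181 ± 15.01, 71.4 ± 2.03 and 87.1 ± 8.14 CPM in that order (-1.34 and -1.05, moderated adjusted p = 8.26e-07 and 4.47e-06). The large proteoglycan VCAN rose, from 24.1 ± 6.27 CPM to 57.7 ± 2.39 with gRNA 4 and 37.7 ± 2.79 with All gRNA (1.28 and 0.68, moderated adjusted p = 1.01e-04 and 0.0115). These 3 genes were chosen for mention after their values had been seen. They are given against No gRNA only, so whether No gRNA itself differed from wild type in them is not shown here.

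In set 1 of MDA-MB-231 TREAT called FBLN1 (log2 fold change -2.02) and MATN2 (-1.92) lower among 29 glycoproteins, LOXL4 (-1.64) lower and the proteoglycan-cleaving protease ADAMTS1 (1.62) higher among 20 enzymes, and no proteoglycan or receptor (0 of 16 and 0 of 11 at an unadjusted p under 0.05 also, with 9 and 7 called by the moderated test). In set 2 it called THBS3 (-2.66) and ECM1 (-1.56) lower among the glycoproteins. Among 16 proteoglycans CSPG4 (-2.21) and ESM1 (-1.46) fell and the cell surface syndecan SDC1 rose (2.09). SDC1 went from 72.6 ± 9.53 CPM in No gRNA to 305 ± 9.57 in set 2, with wild type at 166 ± 3.94 CPM. Of the lysyl oxidases, which cross-link collagen and elastin, LOX (-1.19) and LOXL4 (-2.58) fell and LOXL3 rose (1.93). The integrin chain ITGB3, a partner of ITGAV in receptors for fibronectin and thrombospondin, fell (-3.26, TREAT adjusted p = 0.00124). It went from 10.3 ± 0.696 CPM in No gRNA to 1.09 ± 0.475 in set 2, near its wild type level of 1.38 ± 0.597 CPM. By the moderated test 16 of 29 glycoproteins were lower and 4 higher in set 2, with a median of -0.61, and 8 lower and 7 higher in set 1, with a median of -0.23. In set 2 the test called 6 of 16 proteoglycans lower and 3 higher, 6 of 20 enzymes lower and 7 higher, and 5 of 11 receptors lower and 2 higher. Over all genes it called 25.1% lower and 27.3% higher in set 2, and 17.3% lower and 20.4% higher in set 1. Against wild type, 20 of 29 glycoproteins were higher and 1 lower in MDA-MB-231 No gRNA, with a median of 0.62, as were 8 (3 lower) of 16 proteoglycans, 13 (2 lower) of 20 enzymes and 7 (0 lower) of 11 receptors, where 26.2% of all genes were called higher and 27.6% lower. That comparison shares the No gRNA libraries with those of set 1 and set 2. Apart from SDC1 and ITGB3, the genes named here are given against No gRNA only.

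Since decorin and SPARC are also made by fibroblasts, 9 fibroblast genes were read in the same libraries. Their summed level was higher in targeted SUM159 libraries, as DCN was: 183 to 202 CPM in No gRNA and 256 to 298 CPM in the targeted libraries, with wild type at 137 to 147 CPM in run 1 and 307 to 316 CPM in run 2. The most abundant of them in these 12 libraries was PDGFRA (moderated adjusted p = 1.70e-06 with All gRNA and 5.26e-06 with gRNA 4, log2 fold change 1.02 and 0.90), while COL1A1 fell (-0.70 and -0.75). PDGFRA carried the rise of the sum: of the 5 fibroblast genes tested, its libraries alone lay above No gRNA and those of the other 4 lay below, with both All gRNA and gRNA 4 (list medians -0.88 and -0.77). DPT was at 0 in all 27 libraries, and COL1A2 and THY1 stayed under 0.5 CPM in every group mean. In MDA-MB-231 the sum was at most 20.4 CPM, and of the 3 fibroblast genes tested PDGFRB was lower (log2 fold change -2.52 in set 1, moderated adjusted p = 0.00361, and -3.64 in set 2, TREAT adjusted p = 0.0392) and COL1A1 higher by the moderated test (0.88 and 0.92). PDGFRB was at 8.58 ± 3.19 CPM (SD, n = 3) in No gRNA, 1.78 ± 1.49 in set 1, 0.853 ± 0.732 in set 2 and 2.47 ± 0.535 in wild type. Of 6 endothelial and immune genes CD68 made up most of the sum in each library, at 102 to 109 CPM in wild type MDA-MB-231, 162 to 174 CPM in No gRNA, 157 to 160 CPM in set 1 and 64.7 to 67.6 CPM in set 2. All 3 endothelial and immune genes tested were lower in set 2 by the moderated test, CD68 (-1.34) and CD14 (-2.42) also by TREAT (adjusted p = 3.62e-04 and 0.0188) and PECAM1 not (-1.94). Over all genes in set 2, the moderated test called 25.1% lower and TREAT 2.4%. In set 1 CD14 alone was called, by the moderated test (-2.30), against 17.3% of all genes lower. Its level was 4.69 ± 1.11 CPM in No gRNA, 0.909 ± 0.0366 CPM in set 1, 0.869 ± 0.308 CPM in set 2 and 1.18 ± 0.356 CPM in wild type. In SUM159 CD68 was at 8.48 to 11.1 CPM in wild type of run 1, 28 to 31.8 CPM in wild type of run 2, 16.1 to 18.96 CPM in No gRNA and 20.7 to 23.8 CPM in the targeted libraries. Of the 3 endothelial and immune genes tested there, the moderated test called 2 higher and 0 lower with All gRNA, against 5.93% and 4.89% of all genes. With gRNA 4 it called 0 higher and 1 lower, against 6.11% and 4.91%. VWF, CDH5 and PTPRC stood below 1 CPM in every group mean. Whether these genes have a part in the changes of the matrix genes was not tested.

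Over the 8 groups of the within-line fits, the genes whose group means (log2 CPM, centred on each line) were most like a member's were listed for SPARC and FN1, both called by TREAT. For SPARC these were PUS10 (Pearson r = 0.992), C1QL1 (0.986) and OLFML2A (0.984), and for FN1 EBAG9 (0.984), PIGO (0.980) and HERPUD2-AS1 (0.980). These are the highest of 13774 correlations over 8 points each, of groups that share their line, and describe likeness in pattern only.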

How the data were processed

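The authors quantified 50 bp reads against GRCh38 with Salmon and summarised them per gene as length-scaled estimated counts, which were deposited as 1 table of 57165 genes and 27 libraries. Gene names and positions came from GENCODE (56347 genes matched). Members, lists and comparisons were chosen with earlier results of these data known. Each line's 12 libraries were fitted together with limma 3.58.1 (voom, TREAT at a log2 fold change of 1) in R 4.3.3 after the low-count filter (minimum count 10) and TMM scaling of edgeR 4.0.16, without a replicate block. The interaction used 24 libraries, and comparisons of wild type cells 6. Estimated counts were rounded for edgeR and DESeq2 1.42.0. Genes of the 4 matrix lists were named in MDA-MB-231 if called by TREAT without overlap with No gRNA, up to 2 in each direction per list. Those named in SUM159 (TGFBI, FBLN1 and VCAN) were chosen after their values had been seen. CPM plots used an offset of 0.05. The fits were also run on simulated data, of which no result is given or used here. Strandedness is not given in the sources used here. The genes most like THBS1 in pattern are not reported here.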

Additional observations from a re-analysis of the deposited data

Results flagged for a closer look

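Of the 5 matrix genes that passed the filter on low counts in both lines, 4 differed between the lines in their change from No gRNA by the interaction term of the limma fit (moderated test). The log2 fold change in SUM159 minus that in MDA-MB-231 was -1.77 for THBS1, 1.78 for SPARC, 0.86 for FN1 and 0.57 for TNC. THBS1 alone passed TREAT. With wild type in place of No gRNA the differences were -2.36 for THBS1, -0.07 for SPARC, -1.23 for FN1 and -0.14 for TNC, so that of FN1 reversed and those of SPARC and TNC were no longer called. FN1, SPARC and TNC were higher in MDA-MB-231 No gRNA than in wild type by the same test. Line and run coincide in these 24 libraries, and the SPARC difference rests on at most 83.8 counts per MDA-MB-231 library. SPARC passed the filter on low counts in that line only through No gRNA, where it was high. The part of the low counts in the SPARC difference was not tested.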

How the results depend on the processing

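Outside the settings that leave out 1 library, 296 fold changes of members kept their direction and their side of the threshold, 18 gained and 6 lost a call, and 14 reversed. The setting meant to drop the filter on low counts only repeated the fit scaled by library totals. These tallies therefore count the fold changes of that fit more than once, and the effect of dropping the filter was not tested. The number of genes called by TREAT against No gRNA was 60, 59, 231 and 651 (All gRNA, gRNA 4, set 1, set 2). It was 1639, 1668, 5935 and 8235 by the moderated test, 1816, 1828, 5944 and 8138 by edgeR's quasi-likelihood test, 349, 373, 1323 and 227 with wild type as the control, and 124, 141, 466 and 240 with both controls. It was 93 with gRNA 4 by glmTreat, and 39 with All gRNA in a fit of the compared groups alone. Leaving out 1 library gave 31 to 43, 42 to 52, 194 to 205 and 500 to 557.

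The members called were 1, 1, 1 and 3 by TREAT in that order. They were 3, 3, 3 and 4 by the moderated test, 3, 2, 4 and 5 by edgeR's quasi-likelihood test, 2, 2, 2 and 1 with wild type as the control, 2 with gRNA 4 and 1 in set 2 with both controls, and 0 with All gRNA in a fit of the compared groups alone. In the other comparisons these 2 tests against 0 called 3 and 3 between set 2 and set 1, 3 and 3 between No gRNA and wild type in SUM159 (5 and 5 in MDA-MB-231), 3 and 3 between runs, and 4 and 5 of the 8 members that entered the interaction. Leaving out 1 library gave 0 with All gRNA each time, 2 to 3 in set 2, 0 to 1 between No gRNA and wild type in SUM159 (1 without wild type replicate 1) and 0 to 2 between runs (0 without run 2 replicate 1 or 2, and 2 without replicate 3), and moved no other count past 1.5 times.

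Reversed log2 fold changes came mostly with the control. With wild type they were -0.54 and -0.63 for THBS1 (All gRNA, gRNA 4), 0.0164, 1.55 and 0.67 for FN1 (gRNA 4, set 1, set 2), 0.27 and 0.29 for FBN1 (set 1, set 2) and 0.55 for TNC (set 1). With both controls they were -0.0326 and -0.13 for THBS1 (All gRNA, gRNA 4), 0.27 for FN1 and 0.24 for TNC (set 1). FBN1 with All gRNA was 0.0049 under DESeq2, and between -0.34 and 0.29 when 1 library was left out. In the same way THBS2 with gRNA 4 ran from -0.65 to 0.13 and TNC in set 1 from -0.17 to 0.0099. The cause was not tested.

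Samples of 1 replicate number shared only the number: their deviations correlated between -0.0832 and 0.0585 in SUM159. With the replicate block 0 members were called with All gRNA (SPARC -1.34, TREAT adjusted p = 0.103), FBN1 with All gRNA was 0.0070, and no other count of members moved past 1.5 times. Counts were low for POSTN, THBS2, LUM and BGN in both lines and for SPARC and DCN in MDA-MB-231. Whether depth limited their calls was not tested.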
